A study of Mus musculus with 10 samples.

Results

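The Wnt2 lineage of the adult mouse lung mesenchyme was compared with the Pdgfra lineage, in 2 libraries each, 4 of the 10 libraries of the series. The libraries were chosen by their lineage labels, Wnt2 for the first group and GFP for the second, and no measured value entered the choice. The values are the deposited signals, on a log2 scale. For each gene the difference is the mean of the Wnt2 libraries minus the mean of the Pdgfra libraries, given with its standard error (SE). It was taken over the 14177 of 14854 genes with a signal of 6 or more in at least 2 of the 10 libraries. A positive difference means a higher signal in Wnt2 cells.

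Wnt2 cells were sorted by flow cytometry from adult mice of the line Wnt2CreERT2:R26REFYP, in which a tamoxifen-inducible Cre recombinase driven by Wnt2 switches on a fluorescent reporter at the Rosa26 locus. That reporter stays on in a marked cell and in its descendants, whether or not Wnt2 is still transcribed. Pdgfra cells were sorted from adult mice of the line Axin2CreERT2:tdT:PdgfraEGFP, in which green fluorescent protein follows Pdgfra and tdT follows the Axin2-driven recombinase. The Axin2:Pdgfra, Axin2 and Negative groups, 2 libraries each, came from that line too and entered the fit for the estimate of spread. Total RNA of all groups was extracted with Trizol and sequenced on an Illumina instrument. Lineage, mouse line and kind of reporter changed together, so their effects cannot be told apart. Y-linked transcripts differed between the groups too, as given below, so sex cannot be fully told apart from these either. Age beyond adult, sex and tamoxifen schedule were not used here. Whether the 2 libraries of a lineage are different animals is not stated, so p-values measure the spread between these samples, which may in part be technical. Xist was at 17.04 and 7.81 in the 2 Wnt2 libraries, so those were not repeats of a single RNA sample.

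Wnt2 encodes a secreted ligand of the Wnt pathway that the embryonic lung mesenchyme sends to the endoderm during specification of the lung. Pdgfra encodes a receptor tyrosine kinase for platelet-derived growth factors, found on most lung fibroblasts. Alveolar fibroblasts lie in the gas-exchange walls beside type 2 epithelial cells and are known for Tcf21, Npnt, Itga8 and Limch1. Adventitial fibroblasts surround airways and larger vessels and are known for Pi16, Dcn, Col14a1 and Ly6a. Pericytes and smooth muscle cells express Pdgfrb and, in muscle, a contractile apparatus.

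Transcripts of Pdgfra and Wnt2 were present in both groups of libraries, but neither gene separated the groups past the threshold. Pdgfra had signals of 16.05 and 16.25 in Wnt2 libraries, against 14.64 and 14.92 in Pdgfra libraries. The Wnt2 libraries were the higher ones and the groups did not overlap, with a difference of 1.37 ± 0.36 (SE, 95% interval 0.60 to 2.15) and an adjusted p of 0.185 by limma with Benjamini-Hochberg adjustment, as for all adjusted p-values below. It passed when Negative replicate 0 or Negative replicate 2 was left out (adjusted p = 0.024 and 0.0274). Wnt2 had signals of 9.67 and 10.04 in Wnt2 libraries, against 7.68 and 10.33 in Pdgfra libraries. These overlapped, with a difference of 0.86 ± 0.90 and a 95% interval of -1.08 to 2.79 (adjusted p = 0.901). The mean of the Wnt2 transcript was 9.86 in Wnt2 libraries, 10.36 in Axin2:Pdgfra, 10.06 in Axin2 and 9.42 in Negative libraries. It was therefore not highest in the lineage that it names. Axin2, a target and feedback inhibitor of canonical Wnt signalling, had 11.29 and 11.38 in Wnt2 libraries, against 10.39 and 11.06 in Pdgfra libraries (adjusted p = 0.916). The libraries also differed in transcripts of the sex chromosomes. Xist, the noncoding RNA of the inactive X chromosome, had 17.04 in Wnt2 replicate 1 and 7.81 in Wnt2 replicate 2, against 17.47 and 17.32 in Pdgfra libraries. The Y-linked gene Ddx3y had 8.15 and 11.48 in Wnt2 libraries and held the lowest value of the table in both Pdgfra libraries. Y-linked transcripts were thus present in both Wnt2 libraries, least in replicate 1, and at the lowest value in both Pdgfra libraries. Their part in the results below was not tested.

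**Figure D1:**
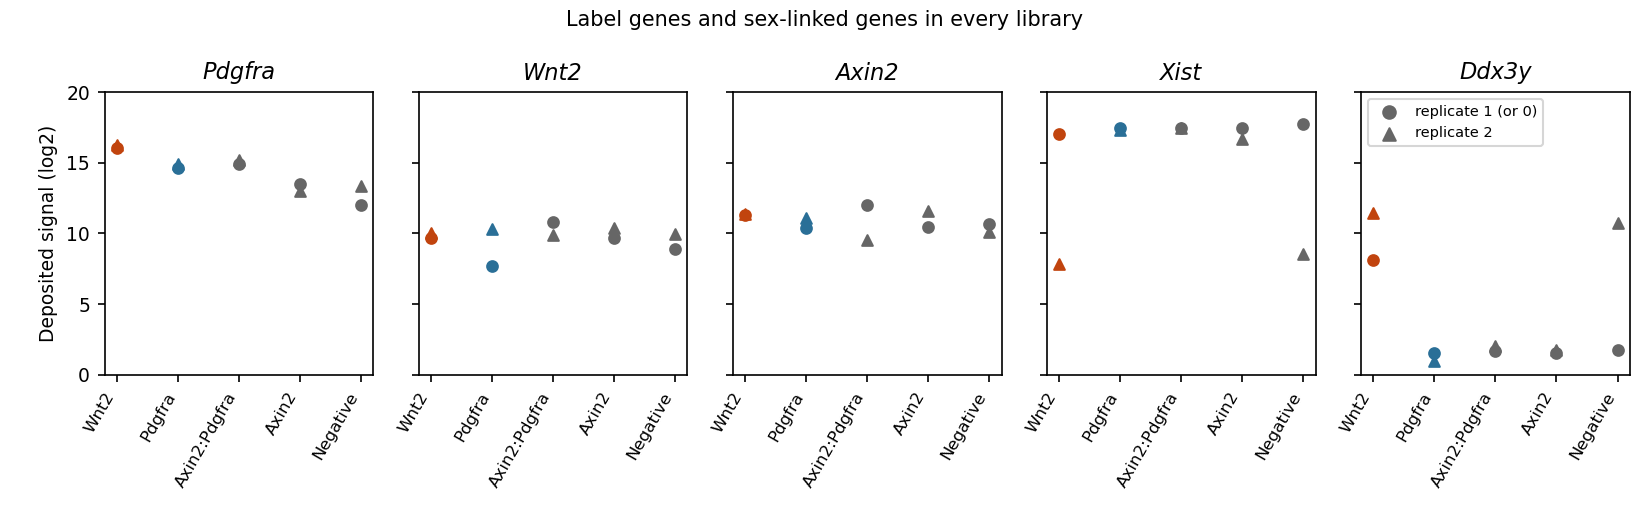
Signal (log2, vertical axis) of Pdgfra, Wnt2, Axin2, Xist and Ddx3y in every library, grouped by lineage with Wnt2 and then Pdgfra at the left. Pdgfra reached 16.05 and 16.25 in Wnt2 libraries, above the 14.64 and 14.92 of Pdgfra libraries, and Xist was low in Wnt2 replicate 2 but not in replicate 1.

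The tables have the same median, 9.1 to 9.11, and the same highest value, 19.25, in all 10 libraries. The lowest value, which many genes share, was held by 434 and 474 genes in Wnt2 libraries and by 1191 and 310 genes in Pdgfra libraries. The libraries of a pair differed by a median of 0.55 per gene in the Wnt2 group and 0.89 in the Pdgfra group. Across genes, Spearman's rho was 0.928 between the Wnt2 libraries and 0.853 between the Pdgfra libraries, and ran between 0.822 and 0.882 for pairs drawn across the groups.

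More of the genes that passed the threshold were lower than higher in Wnt2 cells. At an adjusted p under 0.05, 52 of 14177 genes differed, 0.367% of those tested. Of them 4 were higher in Wnt2 cells (0.0282% of genes tested) and 48 were lower (0.339%). The median difference over all genes was 0.09, with the middle 50% between -0.68 and 0.80. At an unadjusted p under 0.05, 419 genes were higher (2.96%) and 666 were lower (4.7%). Both Wnt2 libraries lay above both Pdgfra libraries for 3429 genes (24.2%) and below them for 2948 genes (20.8%). In all 52 genes the groups did not overlap, with the smallest gap between them 0.67 (mt-Rnr1). The mean signal in Wnt2 cells was under 6 for 14 of the 48 lower genes, and for 5 of those 48 at least 1 Wnt2 library was listed at the lowest value.

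The number of calls depended on single libraries. It was 2 without Pdgfra replicate 1, 8 without Pdgfra replicate 2, 9 without Wnt2 replicate 2 and 31 without Wnt2 replicate 1. Leaving out libraries that share only the estimate of spread gave 22 and 23 (either Axin2 library), 30 and 31 (either Axin2:Pdgfra library) and 80 and 83 (Negative replicate 0 or 2). Dcn and Upk1b passed in all 10 of these fits, and Axl, Enpp2, Clip3 and Scgb1a1 in at least 8.

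**Figure D2:**
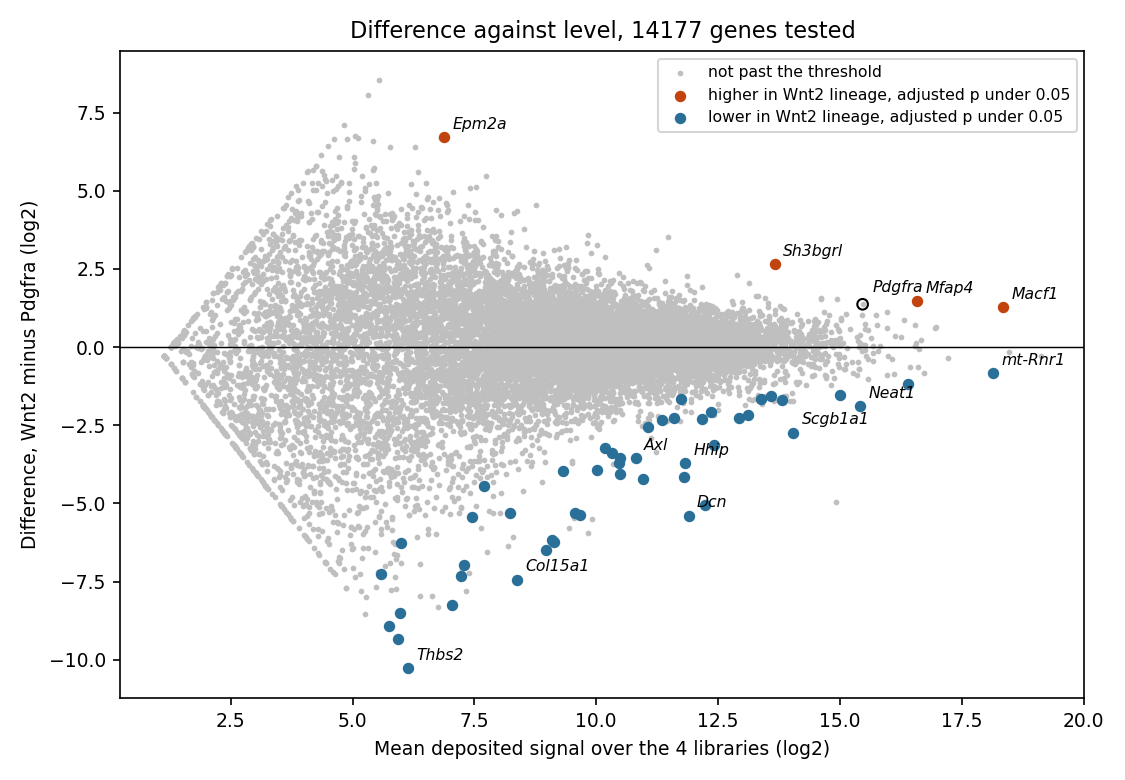
Difference between Wnt2 and Pdgfra cells (log2, vertical axis) against the mean signal of the 4 libraries (log2, horizontal axis) for the 14177 genes tested, with the genes past an adjusted p of 0.05 in colour and Pdgfra ringed. The 4 higher genes lie above the line of no difference and the 48 lower genes reach further from it, most of all at low signals.

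**Figure D3:**
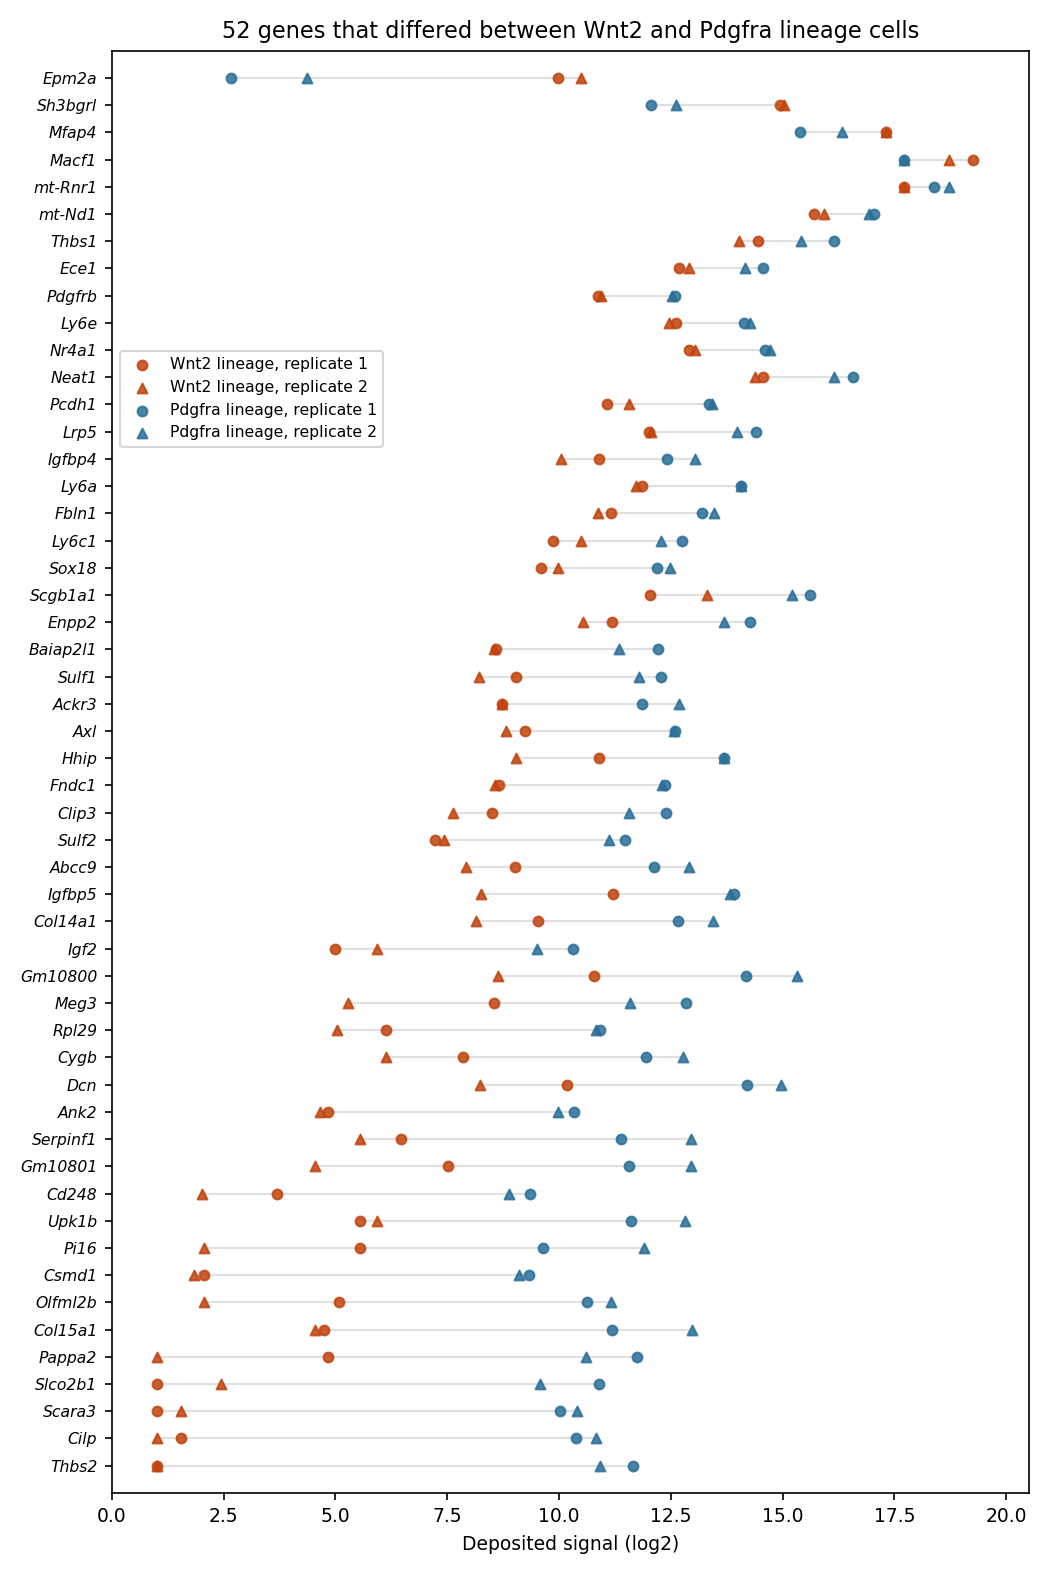
Signal (log2, horizontal axis) of the 52 genes past the threshold, a row per gene, in the 2 Wnt2 libraries (orange) and the 2 Pdgfra libraries (blue), with circles for replicate 1 and triangles for replicate 2. The colours do not overlap in any row, and the Wnt2 points of Thbs2, Cilp, Scara3 and Slco2b1 lie at or near the lowest value.

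The 4 higher genes encode a cytoskeletal linker, an elastic-fibre protein, a small adaptor and a glycogen phosphatase. Macf1, the giant protein that links microtubules to actin, had signals of 19.25 and 18.72 in Wnt2 libraries, against 17.72 and 17.72 in Pdgfra libraries. The value in Wnt2 replicate 1 is the highest in any table, and both Wnt2 libraries stood above every other library of the series. The difference was 1.27 ± 0.18 (adjusted p = 0.00592). Mfap4, a glycoprotein of elastic microfibrils, had 17.32 and 17.32 in Wnt2 libraries, against 15.38 and 16.32 in Pdgfra libraries. The difference was 1.47 ± 0.27 (adjusted p = 0.0354). Near the top of the scale, values such as 17.32 and 17.72 recur across genes and libraries. Equal signals there may be shared ranks, as quantile normalization would leave, and do not show a lack of spread. The sizes and SEs of Macf1 and Mfap4 depend on such steps. Sh3bgrl, an X-linked gene for a small protein with a thioredoxin-like fold, had 14.95 and 15.03 in Wnt2 libraries, against 12.05 and 12.62 in Pdgfra libraries. Its Wnt2 libraries were closer together than its Pdgfra libraries, although Xist differed between them, and the difference was 2.65 ± 0.44 (adjusted p = 0.0188). Epm2a, which encodes laforin, had 9.97 and 10.48 in Wnt2 libraries, against 2.67 and 4.37 in Pdgfra libraries. The Pdgfra libraries were also below all 6 libraries of the other groups, which held 6.88 to 10.45, and the difference was 6.71 ± 1.26 (adjusted p = 0.0372).

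Of 19 alveolar and lipofibroblast genes tested, 2, Macf1 and Mfap4, were higher in Wnt2 cells, beside 0.0282% of all genes. Like all lists, this one was chosen with earlier results of these data known, so the count is a description. Mfap4 is also in the adventitial list, and the markers named above, Tcf21, Npnt, Itga8 and Limch1, did not pass. None was lower, 5 were higher at an unadjusted p under 0.05, beside 2.96% of all genes, and the list's median difference was 0.51, beside 0.09 over all genes. Itga8, the integrin chain that pairs with beta 1 to bind nephronectin, had 16.58 and 16.45 in Wnt2 libraries, against 15.27 and 15.54 in Pdgfra libraries. Limch1, an activator of non-muscle myosin, had 16.32 and 16.17 in Wnt2 libraries, against 15.22 and 15.22 in Pdgfra libraries. In both genes the groups were apart by more than the spread within either group, yet the adjusted p was 0.105 for Itga8 (difference 1.11 ± 0.26) and 0.145 for Limch1 (1.03 ± 0.25). Vegfd, a ligand of lymphatic endothelial receptors, had 14.63 and 14.60 in Wnt2 libraries, against 13.70 and 13.79 in Pdgfra libraries (difference 0.87 ± 0.35, adjusted p = 0.535). Npnt, the matrix ligand of integrin alpha 8, overlapped, with 16.68 and 16.14 in Wnt2 libraries, against 15.95 and 16.22 in Pdgfra libraries. Tcf21, a transcription factor of lung mesenchyme, had 13.12 and 13.03 in Wnt2 libraries, against 12.03 and 12.78 in Pdgfra libraries (adjusted p = 0.844). Both Wnt2 libraries lay above both Pdgfra libraries in 8 of the 19, beside 24.2% of all genes. In 4 members, Cebpa, Lpl, Plin2 and Fgfr4, both Wnt2 libraries lay below both Pdgfra libraries, beside 20.8% of all genes. Cebpa, a transcription factor of lipid-storing cells, had 5.45 and 2.70 in Wnt2 libraries, against 7.63 and 6.67 in Pdgfra libraries (-3.08 ± 1.47, adjusted p = 0.669). Fabp4, a fatty acid carrier, had a signal of 5.77 or less in all 4 libraries. Without Wnt2 replicate 1 or without Pdgfra replicate 1 none of the list's members passed the threshold.

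Other genes had a positive difference and did not pass. Ogn, the small leucine-rich proteoglycan osteoglycin, had 15.77 and 15.68 in Wnt2 libraries, against 13.83 and 14.51 in Pdgfra libraries (difference 1.55 ± 0.31, adjusted p = 0.0529). Mme, the membrane peptidase neprilysin, had 15.38 and 15.41 in Wnt2 libraries, against 13.44 and 14.22 in Pdgfra libraries (adjusted p = 0.0678). Gria1, a glutamate receptor subunit, had 12.44 and 13.11 in Wnt2 libraries, against 8.87 and 10.45 in Pdgfra libraries (3.12 ± 0.65, adjusted p = 0.0631). Angpt1, the agonist ligand of the endothelial receptor Tek, had 14.24 and 14.07 in Wnt2 libraries, against 11.59 and 12.64 in Pdgfra libraries. In each of these genes both Wnt2 libraries were above both Pdgfra libraries, and for Angpt1 the difference was 2.04 ± 0.51 (adjusted p = 0.152).

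Adventitial fibroblast genes accounted for 8 of the 48 lower genes. Of 21 tested, Dcn, Col14a1, Cd248, Ly6a, Serpinf1, Igfbp4, Pi16 and Ly6c1 were lower in Wnt2 cells and Mfap4, which the list shares with the alveolar list, was higher, beside 0.339% of all genes called lower and 0.0282% called higher. The list's median difference was -2.26, beside 0.09 over all genes, and in 17 of the 21 both Wnt2 libraries lay below both Pdgfra libraries, beside 20.8% of all genes. Without Wnt2 replicate 1, 5 members were lower, and without any of the other 3 libraries compared 1 was, while the median ran between -2.68 and -2.21. These are bulk libraries, in which fewer cells of a type and less RNA per cell cannot be told apart.

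Dcn, the collagen-binding proteoglycan decorin, had 10.17 and 8.24 in Wnt2 libraries, against 14.21 and 14.97 in Pdgfra libraries. Both Wnt2 libraries were the lowest of all 10, and the difference was -5.39 ± 0.54 (95% interval -6.54 to -4.24, adjusted p = 0.00112), the smallest p among all genes. Col14a1, a collagen that sits on the surface of fibrils, had 9.54 and 8.15 in Wnt2 libraries, against 12.67 and 13.45 in Pdgfra libraries (-4.21 ± 0.56, adjusted p = 0.00527). Pi16, a secreted protein used as a marker of adventitial fibroblasts, had 5.55 and 2.06 in Wnt2 libraries, against 9.63 and 11.90 in Pdgfra libraries. Both pairs were wide for Pi16 but did not overlap, and the difference was -6.96 ± 1.30 (adjusted p = 0.0372). Serpinf1, the anti-angiogenic factor PEDF, had 6.46 and 5.55 in Wnt2 libraries, against 11.38 and 12.96 in Pdgfra libraries (-6.16 ± 1.0, adjusted p = 0.0183). Cd248, the surface protein endosialin, had 3.70 and 2.01 in Wnt2 libraries, against 9.35 and 8.88 in Pdgfra libraries (-6.26 ± 0.94, adjusted p = 0.0093). Both Wnt2 values of Cd248 fall below the filter level of 6, so the size of its difference rests on low signals. Ly6a, the surface antigen Sca-1, had 11.86 and 11.73 in Wnt2 libraries, against 14.07 and 14.07 in Pdgfra libraries (-2.27 ± 0.36, adjusted p = 0.0141). Ly6c1 had 9.87 and 10.48 in Wnt2 libraries, against 12.75 and 12.28 in Pdgfra libraries, and Ly6e, another gene of that family, had 12.62 and 12.46 in Wnt2 libraries, against 14.14 and 14.28 in Pdgfra libraries. The Ly6 genes lie in a cluster of similar copies, so reads may be divided between them.

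Not every gene of the list followed. Dpt, the matrix protein dermatopontin, overlapped, with 14.03 and 13.88 in Wnt2 libraries, against 13.08 and 13.96 in Pdgfra libraries (difference 0.43, adjusted p = 0.854). Dpep1, a membrane dipeptidase, had 14.67 and 14.80 in Wnt2 libraries, against 14.48 and 14.72 in Pdgfra libraries (0.13, adjusted p = 0.96). Lum, a keratan sulfate proteoglycan of collagen fibrils, was apart in all 4 libraries but just over the threshold. It had 6.38 and 7.35 in Wnt2 libraries, against 11.68 and 13.92 in Pdgfra libraries (-5.94 ± 1.19, adjusted p = 0.0519). C3, the central complement component, had 14.82 and 15.33 in Wnt2 libraries, against 16.09 and 16.09 in Pdgfra libraries (-1.02 ± 0.22, adjusted p = 0.0775).

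**Figure D4:**
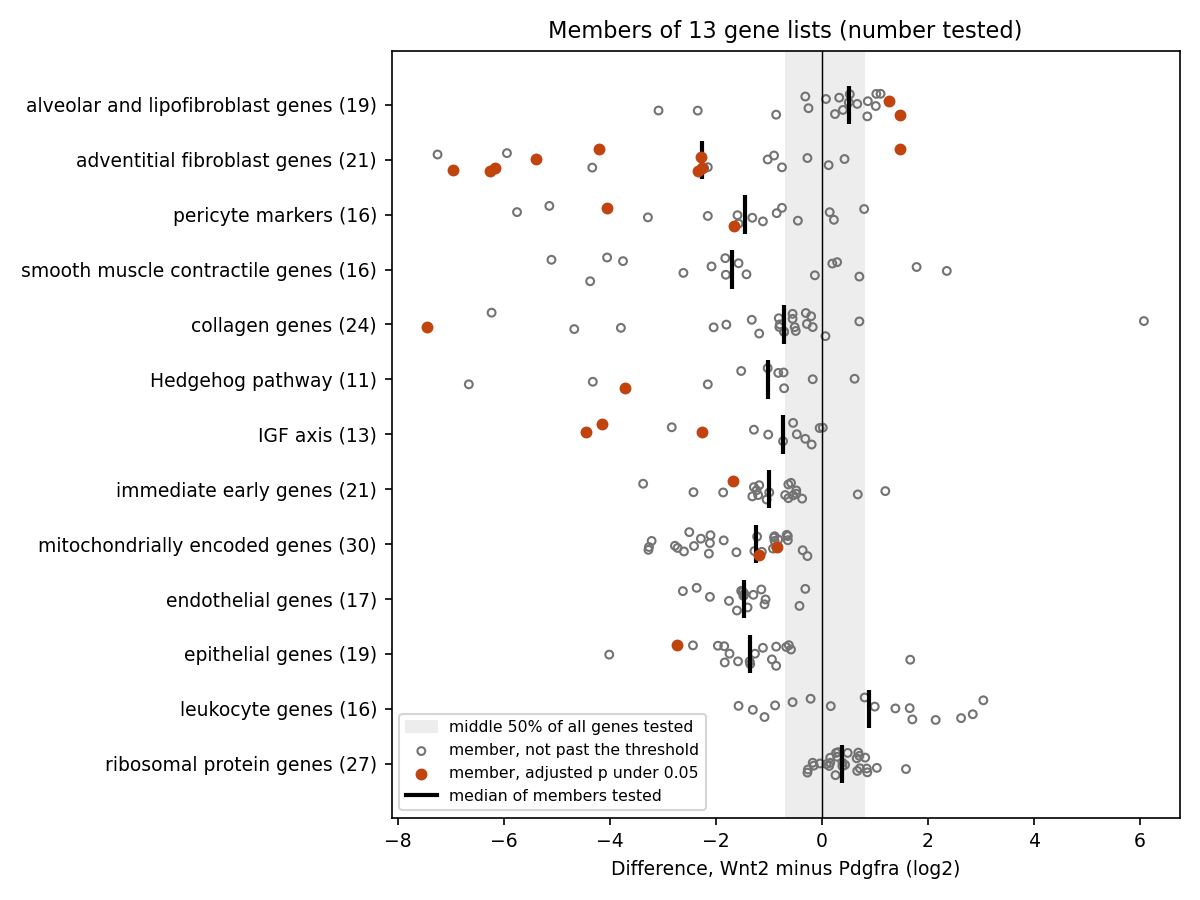
Difference between Wnt2 and Pdgfra cells (log2, horizontal axis) for the members of 13 gene lists, a row per list, with filled points for genes past the threshold, a bar at each list's median and a grey band for the middle 50% of all genes, -0.68 to 0.80. The adventitial list has its median at -2.26 and 8 of its 21 members called lower, and the alveolar list has its median at 0.51.

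Among extracellular matrix genes, 1 collagen and 3 matricellular or elastic-fibre genes were lower in Wnt2 cells, beside 0.339% of all genes. None of 25 basement membrane laminin and integrin genes was called, with a median of -0.05. Col15a1, a collagen of basement membrane zones, had 4.74 and 4.55 in Wnt2 libraries, against 11.19 and 12.98 in Pdgfra libraries (-7.44 ± 1.03, adjusted p = 0.00592). It was the 1 called member of 24 collagen genes tested, whose median was -0.71, beside 0.09 over all genes. Col1a1, a chain of collagen I, had 13.76 and 13.30 in Wnt2 libraries, against 14.40 and 15.01 in Pdgfra libraries (-1.18 ± 0.33, adjusted p = 0.223). Col3a1 overlapped, with 15.35 and 14.16 in Wnt2 libraries, against 15.09 and 15.85 in Pdgfra libraries. Of 25 elastic-fibre and matricellular genes, Thbs1, Thbs2 and Fbln1 were lower and the median was -0.10, beside 0.09 over all genes. Thbs1, a thrombospondin that activates latent TGF-beta, had 14.45 and 14.03 in Wnt2 libraries, against 16.14 and 15.41 in Pdgfra libraries (-1.53 ± 0.28, adjusted p = 0.0347). Thbs2, its anti-angiogenic relative, held the lowest value of the table in both Wnt2 libraries, against 11.65 and 10.92 in Pdgfra libraries (adjusted p = 0.00847). No size is given for Thbs2, since it would depend on that lowest value. Fbln1, a fibulin of elastic fibres and basement membranes, had 11.17 and 10.88 in Wnt2 libraries, against 13.19 and 13.46 in Pdgfra libraries (-2.30 ± 0.36, adjusted p = 0.014). Fn1, fibronectin, had 17.47 and 17.04 in Wnt2 libraries, against 16.45 and 16.85 in Pdgfra libraries (0.61 ± 0.23, adjusted p = 0.514). The matrix genes called lower had Wnt2 signals ranging up to that of Thbs1, so they were not only genes near the lowest value.

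Further secreted and surface proteins were lower in Wnt2 cells. Fndc1, a secreted protein with fibronectin type III domains, had 8.66 and 8.56 in Wnt2 libraries, against 12.36 and 12.30 in Pdgfra libraries, a tight pair on either side (-3.72 ± 0.50, adjusted p = 0.00527). Enpp2, the secreted enzyme autotaxin that makes lysophosphatidic acid, had 11.19 and 10.53 in Wnt2 libraries, against 14.28 and 13.69 in Pdgfra libraries (-3.13 ± 0.36, adjusted p = 0.00152). Sulf1 and Sulf2, the extracellular enzymes that remove sulfate from heparan sulfate, were both lower. Sulf1 had 9.04 and 8.22 in Wnt2 libraries, against 12.27 and 11.78 in Pdgfra libraries, and Sulf2 had 7.22 and 7.43, against 11.48 and 11.12 in Pdgfra libraries (adjusted p = 0.0354 and 0.048). The matrix proteins Olfml2b (-7.32 ± 1.02) and Cilp (-9.33 ± 1.84) and the surface protein Scara3 (-8.93 ± 1.73) had Wnt2 signals of 5.08 or less, and those of Cilp and Scara3 were 1.0 and 1.55. Differences of such genes depend in part on where the lowest value of a table lies. Upk1b, a tetraspanin first known from urothelium, had 5.55 and 5.92 in Wnt2 libraries, against 11.61 and 12.81 in Pdgfra libraries (-6.48 ± 0.70, adjusted p = 0.00126). It was above 10 in all 8 libraries outside the Wnt2 group.

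In the insulin-like growth factor (IGF) axis, 3 of 13 genes were lower in Wnt2 cells, beside 0.339% of all genes, and the median was -0.73. The count was 1 without Wnt2 replicate 1 and 0 without Wnt2 replicate 2 or either Pdgfra library. Igf2, a growth factor expressed from the paternal allele, had 5.0 and 5.92 in Wnt2 libraries, against 10.32 and 9.51 in Pdgfra libraries (-4.45 ± 0.88, adjusted p = 0.0463). Igfbp5, an IGF-binding protein, had 11.20 and 8.26 in Wnt2 libraries, against 13.91 and 13.83 in Pdgfra libraries (-4.14 ± 0.69, adjusted p = 0.0193). Igfbp4, another binding protein, had 10.89 and 10.04 in Wnt2 libraries, against 12.42 and 13.03 in Pdgfra libraries (-2.26 ± 0.42, adjusted p = 0.0354). The spread of Igfbp5 lay between the Wnt2 libraries. Pappa2, a protease that cleaves IGF-binding proteins, was lower too, with 4.83 and 1.0 in Wnt2 libraries, against 11.75 and 10.60 in Pdgfra libraries (adjusted p = 0.048). Igf1 and Igfbp3 overlapped between the groups, with differences of -0.31 and -0.04. Meg3, a noncoding RNA expressed from the maternal allele of another imprinted domain, had 8.54 and 5.29 in Wnt2 libraries, against 12.84 and 11.59 in Pdgfra libraries (-5.30 ± 1.01, adjusted p = 0.04).

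Among signalling receptors, Hhip was the 1 called gene of 11 in the Hedgehog pathway, beside 0.339% of all genes called lower. The pathway's median was -1.02, beside 0.09 over all genes. Hhip, a membrane decoy that binds Hedgehog ligands and is itself a target of the pathway, had 10.90 and 9.04 in Wnt2 libraries, against 13.69 and 13.68 in Pdgfra libraries (-3.71 ± 0.73, adjusted p = 0.0463). Gli1, a transcription factor and target of the pathway, had 3.23 and 1.95 in Wnt2 libraries, against 8.02 and 10.47 in Pdgfra libraries (-6.66 ± 1.58, adjusted p = 0.112). Ptch1, the Hedgehog receptor and also a target, had 12.82 and 12.87 in Wnt2 libraries, against 13.01 and 14.09 in Pdgfra libraries (-0.71, adjusted p = 0.771). The 3 targets had negative differences, of which that of Hhip passed. Of 7 genes for PDGF ligands and receptors, Pdgfrb was lower, beside 0.339% of all genes. It had 10.86 and 10.94 in Wnt2 libraries, against 12.59 and 12.53 in Pdgfra libraries (-1.66 ± 0.31, adjusted p = 0.0354), so the differences in the signals of Pdgfra and Pdgfrb had opposite signs.

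Genes of the Wnt pathway itself mostly did not pass, as is so for most genes, since 0.367% of all genes passed. Of 10 Wnt ligands tested none was called and the median was -0.35. Wnt5a, a ligand of the noncanonical branch, had 9.70 and 8.70 in Wnt2 libraries, against 11.23 and 11.81 in Pdgfra libraries (-2.32 ± 0.58, adjusted p = 0.152). Of 20 receptors and members of the R-spondin axis, Lrp5 was lower, beside 0.339% of all genes, and the median was 0.00. Lrp5, a Wnt co-receptor, had 12 and 12.05 in Wnt2 libraries, against 14.41 and 13.99 in Pdgfra libraries (-2.17 ± 0.41, adjusted p = 0.04). Its relative Lrp6 had 13.86 and 13.74 in Wnt2 libraries, against 13.67 and 13.28 in Pdgfra libraries (0.33 ± 0.33, adjusted p = 0.898). In the genes of the R-spondin receptors Lgr4, Lgr5 and Lgr6 the groups were apart, without passing. Lgr6 had 1.95 and 3.35 in Wnt2 libraries, against 11.09 and 10.12 in Pdgfra libraries (-7.96 ± 1.73, adjusted p = 0.0789), and Lgr5 had 4.07 and 1.0 in Wnt2 libraries, against 9.80 and 9.09 in Pdgfra libraries (-6.91 ± 1.78, adjusted p = 0.163). Lgr4 had the opposite sign, with 9.43 and 10.26 in Wnt2 libraries, against 6.51 and 8.96 in Pdgfra libraries (2.11 ± 1.20, adjusted p = 0.771). None of 7 secreted antagonists and none of 14 canonical Wnt target genes was called, with medians of -0.80 and -0.62. At an unadjusted p under 0.05, 2 of the 10 ligands, 1 of the 7 antagonists and 5 of the 14 targets were lower. The share of all genes lower at that level was 4.7%, and 0 members of these lists were higher. When a compared library was left out, the median ran between -0.98 and 0.24 for the ligands, -1.66 and -0.18 for the antagonists, and -0.81 and -0.32 for the targets.

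Other receptors and regulators were lower in Wnt2 cells. Axl, the receptor tyrosine kinase for Gas6, had 9.24 and 8.81 in Wnt2 libraries, against 12.60 and 12.58 in Pdgfra libraries (-3.56 ± 0.39, adjusted p = 0.00126). The other 6 libraries held 13.16 to 15.32, so Axl was lowest in Wnt2 cells and next lowest in Pdgfra cells. Ackr3, a scavenging receptor for the chemokine CXCL12, had 8.72 and 8.72 in Wnt2 libraries, against 11.86 and 12.68 in Pdgfra libraries (-3.55 ± 0.59, adjusted p = 0.0193). Ece1, the enzyme that activates endothelin, had 12.69 and 12.90 in Wnt2 libraries, against 14.57 and 14.15 in Pdgfra libraries (-1.57 ± 0.29, adjusted p = 0.0372). Clip3, a protein with microtubule-binding CAP-Gly domains, had 8.50 and 7.62 in Wnt2 libraries, against 12.40 and 11.57 in Pdgfra libraries (-3.93 ± 0.50, adjusted p = 0.00403). The groups were apart by more than 2 in each of Axl, Ackr3 and Clip3. Cygb, the haem protein cytoglobin (-5.38 ± 1.03), and Ank2, a membrane-cytoskeleton ankyrin (-5.42 ± 0.99), were lower. So were Csmd1, a membrane protein with complement-control domains (-7.27 ± 1.42), and Slco2b1, an organic anion transporter (-8.51 ± 1.55). Adjusted p-values of these genes lay between 0.0347 and 0.0456. Ank2, Csmd1 and Slco2b1 had Wnt2 signals of 4.83 or less, so the sizes of their differences depend in part on where the lowest value lies. Pcdh1, a protocadherin (-2.07 ± 0.36), and Baiap2l1, a membrane-bending actin adaptor (-3.22 ± 0.56), were lower at adjusted p-values of 0.0239 and 0.0266.

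The promoters of 4 called genes are shown because they stand for different roles, Macf1 for the higher genes, Hhip for signalling, Thbs2 for matrix and Nr4a1 for the early-response genes described next. Each is the stretch of 250 bases before the start of the gene in RefSeq on GRCm38.p6, which is another build than the mm9 of the deposited processing, read 5′ to 3′ on the strand of the gene. They lie at chr4:123684361-123684610 on the minus strand (Macf1), chr8:80058009-80058258 on the minus strand (Hhip), chr17:14694263-14694512 on the minus strand (Thbs2) and chr15:101266596-101266845 on the plus strand (Nr4a1). Capitals mark matches, on either strand, to the core promoter box TATAAA, the cAMP response element TGACGTCA, the AP-1 site TGANTCA or the Egr site GCGGGGGCG.
Macf1: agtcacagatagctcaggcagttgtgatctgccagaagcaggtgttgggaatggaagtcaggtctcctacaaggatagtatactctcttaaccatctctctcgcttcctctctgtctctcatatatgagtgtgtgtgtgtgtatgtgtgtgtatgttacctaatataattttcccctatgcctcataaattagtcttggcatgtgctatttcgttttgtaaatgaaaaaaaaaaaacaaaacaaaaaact
Hhip: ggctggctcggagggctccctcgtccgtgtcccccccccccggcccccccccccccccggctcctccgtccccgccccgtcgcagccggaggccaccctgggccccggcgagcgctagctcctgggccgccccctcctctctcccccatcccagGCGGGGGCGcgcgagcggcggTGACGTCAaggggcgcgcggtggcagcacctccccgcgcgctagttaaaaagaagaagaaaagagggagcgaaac
Thbs2: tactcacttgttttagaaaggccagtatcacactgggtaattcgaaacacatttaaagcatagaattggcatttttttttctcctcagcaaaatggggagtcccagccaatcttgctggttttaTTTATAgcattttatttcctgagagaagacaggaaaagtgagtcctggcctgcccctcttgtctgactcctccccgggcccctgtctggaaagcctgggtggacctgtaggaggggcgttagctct
Nr4a1: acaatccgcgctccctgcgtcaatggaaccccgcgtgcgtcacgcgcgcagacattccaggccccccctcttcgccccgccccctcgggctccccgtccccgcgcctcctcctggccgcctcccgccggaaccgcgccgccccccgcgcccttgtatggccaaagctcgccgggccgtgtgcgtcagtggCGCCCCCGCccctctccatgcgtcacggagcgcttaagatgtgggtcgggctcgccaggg
Hhip has an Egr match that begins 96 bases before the start and a cAMP response element 75 bases before it. Nr4a1 has an Egr match on the opposite strand beginning 60 bases before the start, and Thbs2 has a match to TATAAA on the opposite strand 126 bases before it. No match is capitalised for Macf1. Windows were found for 28 of the 52 called genes, 43 windows in all. Of these 28 genes, 8 hold TATAAA, 2 hold TGACGTCA, 3 hold GCGGGGGCG and 0 hold TGANTCA in at least 1 window. Counted per window and not per gene, so not on the same footing, the shares over all 32817 promoter windows were 12.4% for TATAAA, 1.55% for TGACGTCA, 2.57% for GCGGGGGCG and 6.75% for TGANTCA. None of the matches shown overlaps another, and a match describes the letters of the window only.

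Immediate early genes, which most cells switch on soon after stimulation, including the stress of tissue dissociation, had mostly negative differences. Of 21 tested, 1 was called lower, beside 0.339% of all genes, and 13 were lower at an unadjusted p under 0.05, beside 4.7% of all genes. The median difference was -0.99, beside 0.09 over all genes. Nr4a1, an orphan nuclear receptor, had 12.91 and 13.05 in Wnt2 libraries, against 14.61 and 14.71 in Pdgfra libraries (-1.68 ± 0.29, adjusted p = 0.0231). Its relative Nr4a3 had 12.05 and 12.21 in Wnt2 libraries, against 14.24 and 13.73 in Pdgfra libraries (-1.86 ± 0.47, adjusted p = 0.152). Fos, a subunit of AP-1, had 14.57 and 15.16 in Wnt2 libraries, against 15.45 and 15.35 in Pdgfra libraries (-0.54, adjusted p = 0.651). In 18 of the 21 genes both Wnt2 libraries lay below both Pdgfra libraries, beside 20.8% of all genes. The summed level of the list was 18.16 and 18.40 in Wnt2 libraries, against 19.04 and 18.94 in Pdgfra libraries. None of 16 heat shock and unfolded protein response genes was called, with a median of -0.46. The part of sample handling in the other results was not tested.

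Transcripts of the mitochondrial genome had negative differences throughout. All 30 mitochondrially encoded genes tested had a negative difference, with a median of -1.24, beside 0.09 over all genes. Of them mt-Rnr1 and mt-Nd1 were called lower, beside 0.339% of all genes. mt-Rnr1, the small ribosomal RNA of mitochondria, had 17.72 and 17.72 in Wnt2 libraries, against 18.39 and 18.72 in Pdgfra libraries (-0.84 ± 0.14, adjusted p = 0.0188). These too are values that recur near the top of the scale, so the size and SE of mt-Rnr1 depend on such steps. mt-Nd1, a subunit of complex I, had 15.70 and 15.92 in Wnt2 libraries, against 17.04 and 16.94 in Pdgfra libraries (-1.18 ± 0.22, adjusted p = 0.0354). The summed level of the 31 measured, tested or not, was 20.06 and 20.35 in Wnt2 libraries, against 20.71 and 20.86 in Pdgfra libraries. Nuclear genes of the respiratory chain had a median of 0.43 over 24, none called. Neat1, the scaffold RNA of paraspeckles, had 14.57 and 14.38 in Wnt2 libraries, against 16.58 and 16.14 in Pdgfra libraries (-1.88 ± 0.28, adjusted p = 0.0091). Malat1, a neighbouring nuclear RNA, overlapped, with 18.39 and 18.39 in Wnt2 libraries, against 18.72 and 18.39 in Pdgfra libraries. Ribosomal protein genes had a median of 0.39 over 27, none called. Rpl29, outside that list, had 6.12 and 5.03 in Wnt2 libraries, against 10.91 and 10.83 in Pdgfra libraries (-5.30 ± 0.75, adjusted p = 0.00637), and the predicted genes Gm10800 and Gm10801 differed by -5.04 ± 0.77 and -6.22 ± 1.13. Near-identical copies of these 3 genes and of mitochondrial genes exist elsewhere in the genome, so their values depend on how shared reads were counted.

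Markers of mural cells were lower or did not pass. Of 16 pericyte markers Abcc9 and Pdgfrb were lower, beside 0.339% of all genes, and the median was -1.44. The differences of Trpc6, Gucy1a1 and Gucy1b1 were positive. Abcc9, the regulatory subunit of an ATP-sensitive potassium channel, had 9.01 and 7.92 in Wnt2 libraries, against 12.12 and 12.90 in Pdgfra libraries (-4.05 ± 0.70, adjusted p = 0.0239). In Axin2 libraries Abcc9 was at 12.45 and 12.06, near its Pdgfra values, while Pdgfrb was at 16.32 and 16.94 there. Without Wnt2 replicate 2, or without either Pdgfra library, no pericyte marker passed, and the median ran between -1.71 and -1.21. None of 16 smooth muscle contractile genes passed, though their median was -1.69, beside 0.09 over all genes. At an unadjusted p under 0.05, 9 were lower, beside 4.7% of all genes, and 0 were higher. Both Wnt2 libraries lay below both Pdgfra libraries in 10, beside 20.8% of all genes, and 5 members had a positive difference. Acta2, smooth muscle actin, had 9.87 and 9.14 in Wnt2 libraries, against 11.24 and 11.42 in Pdgfra libraries (-1.82, adjusted p = 0.465). In Axin2 libraries Acta2 was at 16.28 and 16.25, so both compared groups were low beside that group. Mylk, the myosin light chain kinase, overlapped, with 15.92 and 15.50 in Wnt2 libraries, against 15.77 and 15.92 in Pdgfra libraries.

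Transcripts of endothelial cells, which a mesenchymal sort should not hold, were present in both groups. All 17 endothelial genes tested had a negative difference, with a median of -1.47, and none passed the threshold, beside 0.367% of all genes. Cdh5, the cadherin of endothelial junctions, had 13.20 and 13.39 in Wnt2 libraries, against 14.78 and 14.73 in Pdgfra libraries (-1.46 ± 0.43, adjusted p = 0.268). The summed endothelial level was 15.08 and 15.25 in Wnt2 libraries, against 16.54 and 16.60 in Pdgfra libraries, and no endothelial gene was listed at the lowest value in either group. Sox18, a transcription factor of endothelial cells that the list did not hold, was called lower, with 9.59 and 9.97 in Wnt2 libraries, against 12.18 and 12.49 in Pdgfra libraries (-2.55 ± 0.50, adjusted p = 0.046). The part of endothelial RNA in the results was not tested.

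Of 19 epithelial genes, Scgb1a1 was lower in Wnt2 cells, beside 0.339% of all genes. The list's median was -1.35, beside 0.09 over all genes. Scgb1a1, the secretoglobin of airway club cells, had 12.04 and 13.30 in Wnt2 libraries, against 15.61 and 15.21 in Pdgfra libraries (-2.74 ± 0.37, adjusted p = 0.00527). Sftpc, the surfactant protein of type 2 cells, had 12.85 and 13.47 in Wnt2 libraries, against 15.13 and 14.68 in Pdgfra libraries (-1.74 ± 0.36, adjusted p = 0.0583). Epcam, the defining surface marker, overlapped between the groups, with 4.07 and 7.16 in Wnt2 libraries, against the lowest value and 6.33 in Pdgfra libraries. The summed epithelial level was 14.95 and 15.82 in Wnt2 libraries, against 17.50 and 16.82 in Pdgfra libraries. Its part in the results was not tested.

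Other cell types gave no called gene, beside 0.367% of all genes, a share at which such short lists would mostly hold none. Of 16 leukocyte genes the median was 0.90, and the list's summed level was 14.62 and 14.22 in Wnt2 libraries, against 15.36 and 15.15 in Pdgfra libraries. Lyz2, the lysozyme of macrophages and type 2 cells, had 13.03 and 13.09 in Wnt2 libraries, against 14.88 and 14.37 in Pdgfra libraries. Ptprc, the pan-leukocyte marker CD45, went the other way, with 11.54 and 9.84 in Wnt2 libraries, against 7.18 and 8.50 in Pdgfra libraries (2.85 ± 1.60, adjusted p = 0.768). The median and the summed level of this list therefore differ in sign, and its median ran between -0.68 and 2.38 when a library was left out. Of 6 mesothelial genes the median was -1.65, and the summed level was 8.49 and 10.05 in Wnt2 libraries, against 10.46 and 9.40 in Pdgfra libraries. Erythroid genes (5 tested) and Schwann cell and neuronal genes (6 tested) had medians of -1.02 and 0.12. Both medians changed sign when a compared library was left out, between -3.75 and 1.09 for the erythroid list and between -0.12 and 0.52 for the other. The summed erythroid level overlapped, with 11.31 and 6.95 in Wnt2 libraries, against 11.09 and 10.22 in Pdgfra libraries.

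Against the other 3 groups the 52 genes show where each side of the comparison stands. Wnt2 cells had the highest group mean of the 5 lineages in all 4 higher genes and the lowest in 41 of the 48 lower genes. Pdgfra cells had the highest group mean in 16 of the 48. Dcn had 15.14 and 15.00 in Axin2:Pdgfra libraries, 12.55 and 11.88 in Axin2 libraries and 11.04 and 11.07 in Negative libraries, so its Pdgfra values lay next to those of Axin2:Pdgfra. Hhip had 14.79 and 13.76 in Axin2:Pdgfra libraries, while Axin2 libraries (10.28 and 8.64) and Negative libraries (8.61 and 10.09) overlapped the Wnt2 values. Pdgfrb had 16.32 and 16.94 in Axin2 libraries and 15.49 and 15.02 in Negative libraries, well above both compared groups. Thbs2 had 10.47 and 11.03 in Axin2:Pdgfra libraries, 9.29 and 6.88 in Axin2 libraries and 4.32 and 2.67 in Negative libraries. These orders are descriptions, since the 52 genes were selected for their difference between Wnt2 and Pdgfra cells.

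**Figure D5:**
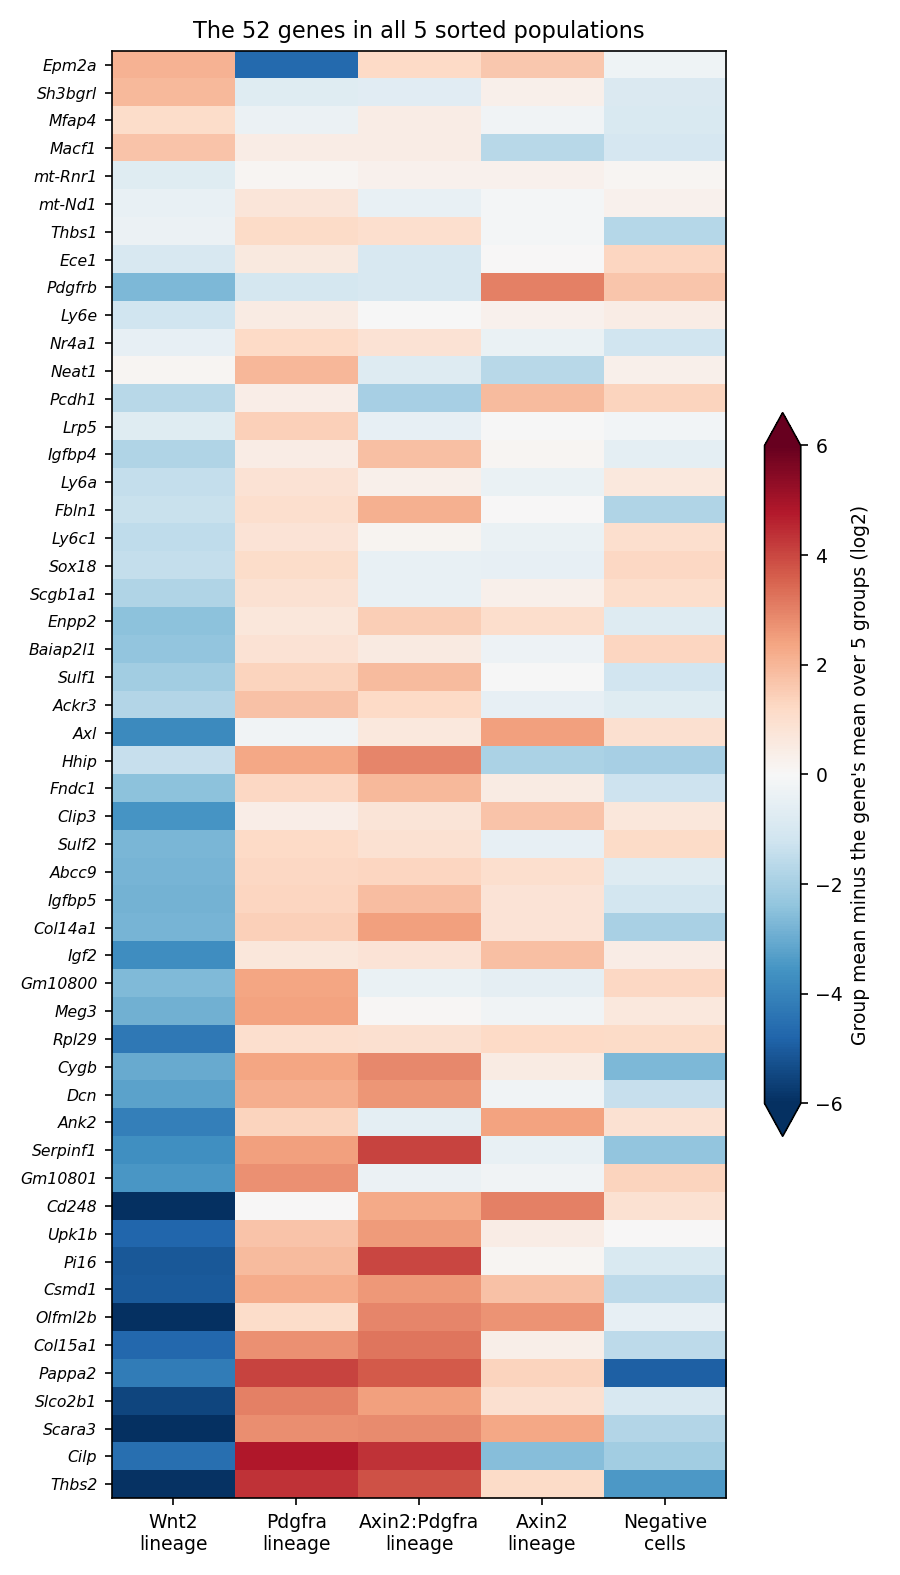
Group mean minus the gene's mean over the 5 groups (log2, colour) for the 52 genes past the threshold, a row per gene, with columns in the order Wnt2, Pdgfra, Axin2:Pdgfra, Axin2 and Negative. The Wnt2 column is the lowest for 41 of the 48 lower genes, and the Pdgfra column is the highest for 16 of them.

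Several further signalling and regulatory families had no called gene. With 0.367% of all genes called, lists of this length would mostly hold none, so the counts do not set these families apart. FGF ligands and receptors (14 genes, median -0.16) included Fgf10, a ligand for the lung epithelium, with 11.98 and 11.46 in Wnt2 libraries, against 11.10 and 10.44 in Pdgfra libraries. BMP genes (20, median -0.39), TGF-beta genes (17, median -0.27), Notch genes (14, median -0.65) and genes of the IL6 family and STAT3 (12, median -0.33) had no called member. Stromal chemokines and cytokines (15 genes) had a median of -1.48, between -1.96 and -0.78 when a compared library was left out, and 6 were lower at an unadjusted p under 0.05, beside 4.7% of all genes. Ccl11, the eosinophil chemoattractant eotaxin, had 4.07 and 6.43 in Wnt2 libraries, against 10.71 and 11.97 in Pdgfra libraries (adjusted p = 0.0694). Mesenchymal transcription factors (23 genes) had a median of 0.00 and Hox genes (13 genes) of -0.19. Genes of lipid uptake, storage and oxidation (25 genes) had a median of 0.11, and interferon response genes (16) and cell cycle genes (9) had medians of -0.73 and -0.17.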

How the data were processed

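RNA-seq libraries of sorted lung mesenchymal cells, 2 per lineage, were grouped by their labels. The deposited tables hold a single log2 signal per Ensembl gene, a scale inferred from the values, whose near-identical distributions above the low end are those that quantile normalization leaves. STAR, limma and mm9 are named in the submitters' processing notes. Versions, read counter, strand use and annotation are not given in these sources, so reads of overlapping or antisense genes cannot be told apart. No counts were used and depth is unknown.

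Genes with a signal of at least 6 in at least 2 of 10 libraries were fitted with limma 3.58.1 in R 4.3.3, with a mean per group, no covariate, 5 residual degrees of freedom, eBayes with trend and robust, two-sided tests and Benjamini-Hochberg adjustment over 14177 genes (threshold 0.05). Symbols from GENCODE and a table of gene names matched 14720 of 14854 identifiers. Summed levels are log2 of the sum of linear signals. The difference of a gene at a table's lowest value in both libraries of a group is not printed, though it entered the medians and counts. The fit was tested on simulated data.

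The gene lists and the genes compared were chosen with earlier results of these data known, and the mitochondrially encoded list was added after its values were seen. Named genes are Pdgfra, Wnt2, Axin2, Xist, Y-linked genes, all genes past the threshold, up to 4 members of each list with the highest levels, and up to 10 genes in each direction with an unadjusted p under 0.01 and the highest levels. Other list members and genes just outside the threshold were named after their values were seen. Alternatives were the 4 libraries alone, other filters, a floor of 6, a pseudocount of 64, no trend or robust step, median centring, blocks for replicate number or second index, leaving out Y-linked genes and Xist, and leaving out each library.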

Additional observations from a re-analysis of the deposited data

How the results depend on the processing

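None of the 52 genes past the threshold changed direction under the alternatives run. The number of genes past it was 52, the same genes, without a filter, after median centring and without Y-linked genes and Xist. With a filter of 8 it was 52, 49 of them among the original 52. With a pseudocount of 64 it was 50, 43 of them among the 52. With a block for the second index it was 48, 45 of them among the 52. With values under 6 raised to 6 it was 44, 38 of them among the 52. It was 19 with the 4 compared libraries alone, 17 of them among the 52, and 4 without the trend and robust steps, 2 of them among the 52. The cause was not tested, though the fit with 4 libraries has fewer samples. Leaving out a library in turn gave 2 to 83 genes, and where 1 library of a group was left it was assumed to vary like the other groups. The difference of the Pdgfra transcript kept its sign, between 1.23 and 1.51, with adjusted p-values of 0.024 to 0.929. It was past the threshold, at 1.37, without Negative replicate 0, without Negative replicate 2 and with the replicate block (adjusted p = 0.0465). The replicate block gave 66 genes, 50 of them among the 52. Whether libraries with the same number share more than that number is not stated. Across genes, the deviations of same-numbered Wnt2 and Pdgfra libraries had a correlation of -0.0392. That value covers only these 2 groups and cannot decide the question. Depth is unknown, 2 libraries a group limit the precision, and differences of genes near the lowest value depend on where that value lies.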

Other observations

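Some genes that missed the threshold add values not given above. Retnla, a secreted resistin-like protein of alternatively activated macrophages and stroma, held the lowest value of the table in both Wnt2 libraries, against 9.38 and 9.68 in Pdgfra libraries (limma, adjusted p = 0.0631). Col8a2, a short-chain collagen, had 9.21 and 6.94 in Wnt2 libraries, against 1.55 and 2.45 in Pdgfra libraries, a difference of 6.08 ± 2.0 (SE) that did not pass (adjusted p = 0.375). Kitl, the ligand of the receptor Kit, had 12.93 and 13.10 in Wnt2 libraries, against 12.06 and 12.23 in Pdgfra libraries (0.87 ± 0.37, adjusted p = 0.583). Tns1, a focal adhesion protein that binds actin, had 17.13 and 17.47 in Wnt2 libraries, against 16.85 and 16.45 in Pdgfra libraries (0.65 ± 0.18, adjusted p = 0.199). In all 4 genes the groups did not overlap.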
